A study of Mus musculus with 3 samples.

Results

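Suprabasal differentiating keratinocytes were examined in the Day 7 and Day 14 libraries of a single-cell RNA sequencing series of mouse skin wounds. A barcode was taken as a member when it had at least 1000 unique molecular identifiers (UMIs, one per captured mRNA molecule) and at most 10% of them from mitochondrial genes. In addition, *Krt5*, *Krt14*, *Krt15*, *Krt17*, *Krt1*, *Krt10* and *Krtdap* together had to make up at least 1% of its UMIs. It also needed at least 3 UMIs of *Dsp*, *Perp*, *Sfn* and *Epcam*, and less than 1% of UMIs from the fibroblast genes *Dcn* and *Col1a2*. Finally, *Krt1* and *Krt10* together had to reach at least the count of *Krt5* and *Krt14*. With the last condition reversed, the same gate gave the basal keratinocytes used for comparison. The rule found 288 members among the 39535 barcodes of the 2 libraries, 9 on Day 7 and 279 on Day 14, and none among the barcodes of Day 3, which brought the series to 44693.

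The study sequenced cells of dorsal wounds in wild-type C57BL/6J male mice, aged 7 to 12 weeks, with 1 library each for Day 3, Day 7 and Day 14 after wounding. The design note of the series calls the wounds incisional, whereas the study's methods describe full-thickness excisional wounds made with a biopsy punch. Harvested tissue of several wounds was pooled for each library, dissociated with enzymes as whole skin, freed of red cells by lysis and of debris, and loaded without sorting for 3′ gene counting. The labels give no treatment or genotype that differs between the libraries. Each day was a separate pool, so that day and pool, dissociation or library preparation cannot be told apart, and cells of 1 day are not replicates of that day. The values below compare libraries or cell groups within a library, with no test. Intervals are 95% intervals of the counts and cover counting error only. Expression is given as UMIs of the gene among 1000000 UMIs of the summed group (CPM), and a gene counted as different when its CPM was at least 2-fold apart between groups. In this count a gene needed at least 50 CPM in 1 group and at least 10 UMIs over both.

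The epidermis renews itself from a basal layer that is anchored to the basement membrane by hemidesmosomes and makes the keratins *Krt5* and *Krt14*. Cells that leave this layer switch to *Krt1* and *Krt10* in the spinous layer, strengthen their desmosomes, and later, in the granular layer, make filaggrin, loricrin and other precursors of the cornified envelope together with the lipids of the water barrier. After wounding, keratinocytes at the wound edge make *Krt6a*, *Krt6b*, *Krt16* and *Krt17* while they close the gap, and a stratified epidermis forms again over the wound.

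The promoters of 5 genes are printed first, because *Krt10* and *Krtdap* defined the members, *Krt77* and *Sbsn* were among the abundant genes that set them apart from basal cells, and *Lor* stood for the late genes that few of them held. Each line gives the 150 bases upstream of the RefSeq transcription start in GRCm38.p6, whose coordinates are those of mm10, written 5′ to 3′ on the strand of the gene. Capitals mark TGANTCA, the core motif of AP-1 factors, searched on both strands, and TATAAA, a form of the TATA box, searched on the strand of the gene.
Krt10 (chr11:99389365-99389514, minus strand): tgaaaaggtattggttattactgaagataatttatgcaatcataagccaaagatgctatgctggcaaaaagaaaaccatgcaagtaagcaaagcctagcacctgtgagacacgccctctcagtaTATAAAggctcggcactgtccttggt
Krt77 (chr15:101869706-101869855, minus strand): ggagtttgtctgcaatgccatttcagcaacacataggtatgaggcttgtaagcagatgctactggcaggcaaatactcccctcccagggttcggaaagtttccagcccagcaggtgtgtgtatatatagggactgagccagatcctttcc
Krtdap (chr7:30787755-30787904, plus strand): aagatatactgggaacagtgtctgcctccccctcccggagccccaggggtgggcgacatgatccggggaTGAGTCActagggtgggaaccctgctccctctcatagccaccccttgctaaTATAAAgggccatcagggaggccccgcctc
Sbsn (chr7:30751321-30751470, plus strand): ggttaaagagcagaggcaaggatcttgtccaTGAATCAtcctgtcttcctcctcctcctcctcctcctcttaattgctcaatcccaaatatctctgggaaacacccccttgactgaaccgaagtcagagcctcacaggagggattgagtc
Lor (chr3:92083143-92083292, minus strand): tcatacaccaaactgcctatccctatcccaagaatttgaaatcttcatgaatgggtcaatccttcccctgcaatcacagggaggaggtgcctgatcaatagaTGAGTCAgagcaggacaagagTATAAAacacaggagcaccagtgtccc
The *Krtdap* and *Lor* promoters held both motifs, with AP-1 matches starting at 81 and 48 bases and TATAAA matches at 30 and 27 bases before the start. *Sbsn* held an AP-1 match alone, *Krt10* a TATAAA match alone, and *Krt77* neither exact match. The *Krt77* window holds the letters tatatata, which the search for TATAAA did not count. The shares that follow count genes with a match in longer upstream windows, of which the printed bases are the part nearest the start. The AP-1 motif was present in 7.82% of 27025 genes and in 6.03% of the 2437 measured against basal cells on Day 14. Of the latter, 11.3% of the 248 higher in members and 5.75% of the 261 lower had it. So did 4 of the 11 spinous and 9 of the 29 granular and cornified genes. TATAAA was present in 8.94% of all genes, 6.57% of those measured, 9.68% of the higher and 11.1% of the lower. Among the lists, 3 of the 11 spinous and 10 of the 29 late genes had it. Such matches describe letters in the window and not binding.

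The Day 7 and Day 14 libraries held 120940799 and 112713257 UMIs in 22924 and 16611 barcodes, and 18923 and 13803 of these barcodes passed the limits on UMIs and mitochondrial share. Members had a median of 7212 UMIs and 2039 genes on Day 7, and of 7441 UMIs and 2176 genes on Day 14. Basal cells had medians of 7590 and 5283 UMIs. Fibroblast-gated barcodes, those with at least 1% of UMIs from *Dcn* and *Col1a2* and below the keratin limit, numbered 7199 and 7661 with medians of 10448 and 10421 UMIs. The other barcodes, 11686 and 5566, had medians of 2820 and 3564.5 UMIs. Mitochondrial genes took a median of 3.64% and 3.30% of the members' UMIs. A simulated-neighbour doublet score marked 1978 barcodes of Day 7 (9.17%) and 962 of Day 14 (6.65%), among them 0 and 13 members, and these were kept. Days 7 and 14 shared 111 barcode sequences, of which none belonged to a member.

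The 4 markers of the cell type were present in nearly all members, but the rule used each of them as part of a sum. Their presence is therefore set in part by the rule and adds no separate support. *Krtdap* had a UMI in all 279 members of Day 14, *Krt10* in 274 and *Krt1* in 268. On Day 14 *Krt10* made up a median of 1.19% of a member's UMIs, *Krt1* of 0.959%, *Krtdap* of 1.56% and the desmosomal plaque gene *Dsp* of 0.229%. *Dsp* had a UMI in 272 of the 279 members. Together the 4 genes reached at least 1% of UMIs in 276 of the 279, and in all 9 members of Day 7. Marker lists of other cell types were low. The 5 Merkel cell genes were at 0, and the T cell, neutrophil, endothelial, melanocyte and mast cell lists each summed to at most 9.49 CPM. The pericyte list summed to 82.7 CPM and the Schwann cell list to 51.5 CPM. The fibroblast list, whose *Dcn* and *Col1a2* the rule kept low, summed to 2945 CPM in members and 2756 CPM in basal cells. In 7 members it reached at least 1% of UMIs. The Langerhans and dendritic cell list summed to 1647 CPM in members and 565 CPM in basal cells, with 12 members at 1% or more. The macrophage list summed to 743 and 450 CPM, with 5 members at 1% or more. In the members 5 of 6 T cell genes were detected, all but *Cd3e*, and 4 of 5 melanocyte genes, all but *Tyr*. Of the 5 neutrophil genes 2 were detected, and *Cxcr2* was among those at 0.

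The values nearest to the limits were close on both sides on Day 14. The member with the lowest keratin share had 1.12% and the nearest barcode outside 0.877%, and 56 barcodes failed that limit alone. For *Dcn* and *Col1a2* the nearest values were 0.97% inside and 1.09% outside, with 32 barcodes failing that limit alone. For the mitochondrial share they were 9.97% and 10.4%, with 67 barcodes. The *Krt1* and *Krt10* share of the 4 balance keratins had a median of 1 in members and of 0.00559 in basal cells. The lowest member stood at 0.504 and the highest basal cell at 0.495. In 167 members no *Krt5* or *Krt14* UMI was found, and in 119 basal cells no *Krt1* or *Krt10* UMI. These values chose the 2 groups and support nothing further.

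**Figure D1:**
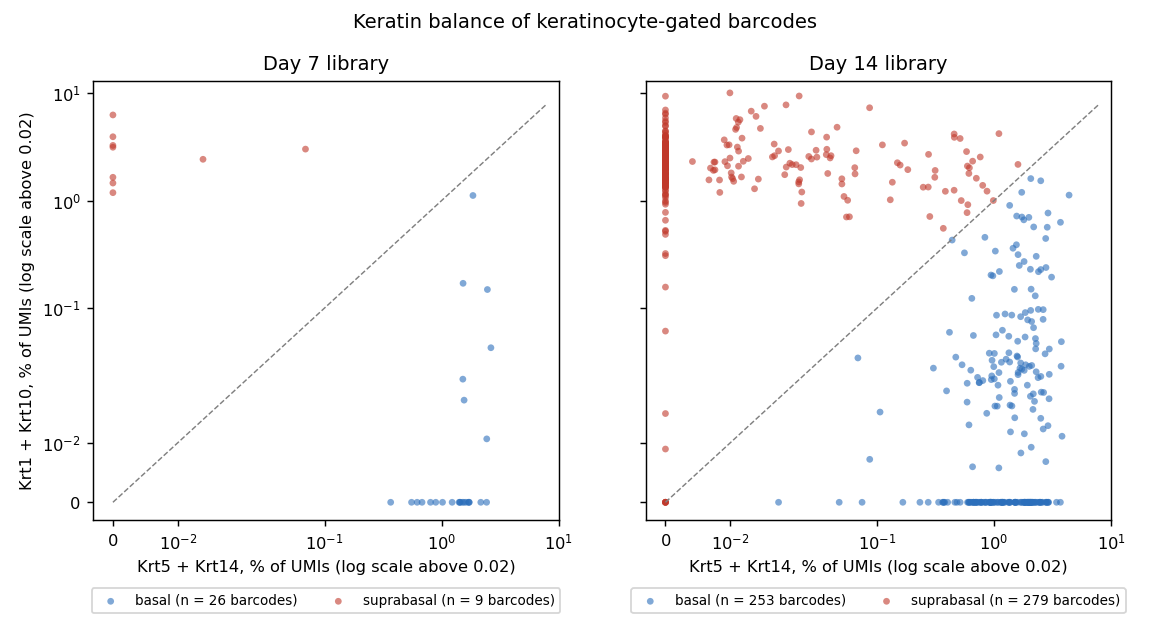
Share of UMIs from *Krt5* and *Krt14* (x axis, %) and from *Krt1* and *Krt10* (y axis, %) in each keratinocyte-gated barcode of Day 7 (left, 26 basal and 9 suprabasal) and Day 14 (right, 253 and 279), on axes that are linear below 0.02% and logarithmic above. The dashed line is equality, which separates the groups by the rule, and most points lie on or near 1 of the 2 axes.

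Suprabasal cells were rare on Day 7 and numbered 279 beside 253 basal cells on Day 14. They made up 0.0476% (95% exact binomial interval 0.0218 to 0.0903) of the passing barcodes of Day 7 and 2.02% (1.79 to 2.27) of those of Day 14. Of the gated keratinocytes, 9 of 35 were suprabasal on Day 7 (25.7%, 12.5 to 43.3) and 279 of 532 on Day 14 (52.4%, 48.1 to 56.8). In the Day 3 library, none of 3891 passing barcodes was a member (limit for a count of 0, 0.0771%), and 1 was basal. There, 167 *Krt1* and *Krt10* UMIs were spread over 133 barcodes. The yield of keratinocytes from the dissociation and their number in the wound cannot be told apart in these shares.

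The spinous genes stood higher in members than in basal cells on Day 14. Over all 3069 genes measured in this comparison, 10.6% were at least 2-fold higher in members than in basal cells and 11.1% at least 2-fold lower, with a median log2 ratio of -0.09. Of the 13 spinous genes that the rule did not use, 11 were at least 2-fold higher and none lower, with a median log2 ratio of 2.59. Of the 9 that reached 50 CPM in both groups, 7 were higher and none lower. The minimum bears on such counts, because 235 of the 324 genes called higher over the whole table reached 50 CPM in members only. For such a gene the minimum set the direction, though not a 2-fold gap. Without the minimum, 10.4% of 10755 genes were higher and 17.0% lower. The comparison is a description, since the same cells' keratins chose the groups. *Krt77*, a keratin of suprabasal epidermis, reached 5159 CPM (5065 to 5255) in members and 59.9 CPM (48.3 to 73.5) in basal cells, an 86.1-fold ratio. It was also high on Day 7, at 12401 CPM in the 9 members, while none of its UMIs was in a basal cell.

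The secreted products of the spinous layer followed. Suprabasin (*Sbsn*) stood at 3498 CPM in members and 300.3 CPM in basal cells, and dermokine (*Dmkn*) at 4599 and 1629 CPM, a 2.82-fold ratio. On Day 7 the same genes stood at 5389 against 467 CPM and at 5515 against 1804 CPM. A single member held 215 of the 342 *Sbsn* and 176 of the 350 *Dmkn* UMIs of Day 7, and without it they stood at 2373 and 3251 CPM. Both genes lie beside *Krtdap* on chromosome 7. *Mt4*, a metallothionein of stratified epithelia, stood at 2194 CPM in members and 69.7 CPM in basal cells, a 31.5-fold ratio, and at 441 CPM and 0 on Day 7. The desmosomal cadherins *Dsg1a* (952 against 158 CPM, 6.04-fold) and *Dsc1* (165 against 5.86 CPM, 28.1-fold) were higher in members as well. So were *Ptgs1*, a prostaglandin synthase (8.32-fold), *Lypd3* (3.25-fold) and the serpin *Serpinb5* (2.32-fold).

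A further pair of spinous genes was abundant in both layers. *Ly6d*, a GPI-anchored surface protein, stood at 7483 CPM in members and 3751 CPM in basal cells, a log2 ratio of 1.00 that fell just short of 2-fold. *Lgals7*, an epithelial galectin, stood at 7573 and 4216 CPM, a log2 ratio of 0.85. On Day 7 *Ly6d* stood at 2994 CPM in members and 4673 CPM in basal cells, where 1 cell held 462 of the 1080 basal UMIs. Without that cell the basal level was 2962 CPM, and the median cell had 2815 CPM among members and 338 CPM among basal cells.

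Genes of the *Skint* family stood near the top of the ratio. The 15 highest ratios of Day 14 included *Skint5*, *Skint9* and *Skint10*, members of a family of butyrophilin-like proteins of skin and thymus. *Skint10* stood at 61.0 CPM in members against 2 UMIs in basal cells (log2 ratio 5.55, 3.67 to 8.61), and *Skint5* at 65.0 CPM against 1 UMI (6.64, 4.14 to 11.96). *Ereg*, an EGF receptor ligand, stood at 119 CPM against 2 UMIs (6.52, 4.65 to 9.57), and its 264 UMIs came from 21 members. The keratin *Krt78* stood at 92.1 CPM against 2 UMIs. *Serpinb12* stood at 100 CPM and was at 0 in basal cells, at least 51.3-fold higher.

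Genes of the barrier lipids stood higher in members on Day 14. Of 25 listed lipid genes, 12 reached 50 CPM in a group, 11 of them in members only, so that their direction was set by that minimum. Without it, 22 of the 23 lipid genes with at least 10 UMIs were at least 2-fold higher, with a median log2 ratio of 2.53. The exception was the ceramide synthase *Cers4*, at 13.6 against 13.7 CPM, with 27 of the members' 30 UMIs in 1 cell. Without the top barcode of each group its log2 ratio was -3.19. *Elovl4*, which elongates the very long fatty acids of skin ceramides, stood at 694 CPM (660 to 729) in members and 25.4 CPM (18.1 to 34.7) in basal cells, a 27.3-fold ratio. *Abca12*, the transporter that loads lipid into lamellar granules, was 11.9-fold higher. The ceramidase *Acer1* was 19.6-fold higher, the acyltransferase *Dgat2* 21.8-fold, the sphingolipid synthesis gene *Sptlc3* 11.1-fold and the glucosylceramide synthase *Ugcg* 3.11-fold. *Fabp5*, the epidermal fatty acid binding protein, stood at 2719 CPM in members and 254 CPM in basal cells on Day 14. On Day 7 the summed levels were 3735 CPM in members and 7788 CPM in basal cells. A single basal cell held 573 of the 1800 basal *Fabp5* UMIs of Day 7, and the basal level without it was 5765 CPM. The median cell had 2111 CPM among members and 326 CPM among basal cells.

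Among the proteases of the outer layers and their inhibitors, several stood higher in members. Of 12 genes measured, 7 were at least 2-fold higher and none lower, but 6 of the 7 reached 50 CPM in members only. Without the minimum, 9 of 18 were higher and 2 lower. *Klk5* and *Klk7*, kallikreins that cut the desmosomes of the cornified layer, stood at 107.5 and 289 CPM in members, 18.3-fold and 8.52-fold above basal cells. *Klk8* (8.36-fold) and *Klk11* (3.42-fold) were higher too. *Klk6* and *Klk10*, below the minimum in both groups, were lower, both at 2.26 CPM in members and *Klk6* at 11.1 CPM in basal cells. The kallikrein inhibitor *Spink5* stood at 660 CPM against 21.5 CPM, a 30.7-fold ratio, and the cystatin *Cst6* at 1574 against 458 CPM, 3.44-fold. The *Cst6* ratio rested on 17 members rich in *Krt79*, described further on, which held 2474 of its 3485 UMIs, and the other 262 stood at 486 CPM. Of the 2474, 997 lay in 1 member and 769 in another. On the basal side 1 cell held 358 of the 703 UMIs, and 225 CPM remained without it. By cells, *Cst6* had a UMI in 209 of 279 members and in 33 of 253 basal cells, with medians of 243 CPM and 0. Its log2 ratio was 1.78, and 0.01 when both groups needed a 2-fold keratin balance. That setting also counted as basal the 5 members with none of the 4 balance keratins. Of these 5, 1 held 769 and another 203 *Cst6* UMIs. *Cstb*, a cystatin made in many cell types, differed by a log2 ratio of 0.21.

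Cell contacts differed by the kind of desmosomal cadherin. *Dsg2* and *Dsg3*, desmogleins of deeper layers, stood at 4.07 against 83.4 CPM and at 38.9 against 206 CPM, 20.5-fold and 5.30-fold lower in members. *Dsg1a* and *Dsg1b*, desmogleins of upper layers, were 6.04-fold and 7.77-fold higher. *Dsc3* (2.07-fold) and the plaque gene *Jup* (2.20-fold) were higher, and *Pkp1* differed by a log2 ratio of 0.92. In total 5 of 9 desmosome genes that the rule did not use were at least 2-fold higher and 2 lower, and of the 5 that reached 50 CPM in both groups 3 were higher and none lower. Of 7 tight and adherens junction genes measured, *Cldn4* passed 2-fold, at 248 CPM against 13.7 CPM (18.2-fold), and reached 50 CPM in members only. Without the minimum 4 of 12 were higher and none lower. E-cadherin, *Cdh1*, differed by a log2 ratio of 0.09 and *Cldn1* by 0.41.

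Beside 10.6% higher and 11.1% lower over all 3069 genes measured, 5 of 19 epidermal transcription factors were at least 2-fold higher in members and 2 lower. Of these, 3 reached 50 CPM in members only and both lower ones in basal cells only. Without the minimum 5 of 23 factors were higher and 4 lower, *Grhl2* and *Ovol2* included, beside 10.4% and 17.0% of all 10755 genes. Both counts of lower factors were near the share of all genes. The higher ones were *Zfp750* (194 against 28.7 CPM, 6.76-fold), *Grhl3* (77.2 against 13.7 CPM, 5.65-fold), *Grhl1* (4.49-fold), *Cebpa* (3.61-fold) and *Ovol1* (2.59-fold), all factors of epidermal differentiation. The lower ones at the minimum were *Sox9*, a factor of hair follicle stem cells (37.0 against 311 CPM, 8.39-fold), and *Barx2* (2.74-fold). *Klf4*, a barrier factor, stood at 1239 and 797 CPM, a log2 ratio of 0.64. *Trp63*, the master factor of stratified epithelia, stood at 195 and 351 CPM, a log2 ratio of -0.85. In the Notch pathway, which helps cells leave the basal layer, the ligand *Jag2* had 1 UMI in members against 76.9 CPM in basal cells (log2 ratio -7.41, -12.73 to -4.90). The ligand *Jag1* stood at 39.3 against 78.8 CPM and the receptor *Notch1* at 80.9 against 145 CPM. *Nrarp*, a Notch target, was at least 2-fold higher, and the target *Hes1* differed by a log2 ratio of 0.45. *Nrarp* reached 50 CPM in members only, and *Jag1* and *Jag2* in basal cells only. Without the minimum 3 of 11 Notch genes were higher and 4 lower, beside the same 10.4% and 17.0% of all genes. The receptors *Notch2* and *Notch3* were below 50 CPM in both groups.

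All 15 basal genes that the rule did not use were at least 2-fold lower in members on Day 14, with a median log2 ratio of -2.45. Of these, 8 reached 50 CPM in basal cells only, and the 7 that reached it in both groups were lower as well. The genes of the anchorage were lower to different degrees. The hemidesmosomal collagen *Col17a1* stood at 279 CPM (258 to 302) in members and 1336 CPM (1278 to 1395) in basal cells, 4.78-fold lower, and the integrin *Itga6* was 4.93-fold lower. The partner integrin *Itgb4* had 3 UMIs in members against 101 CPM (log2 ratio -6.22, -8.51 to -4.65), and the laminin chain *Lamb3* stood at 3.16 against 137 CPM, 43.3-fold lower. *Dst*, the hemidesmosomal plaque protein, was 3.58-fold lower, and the chemokine *Cxcl14* 12.9-fold. Members thus held *Col17a1* transcripts in 160 of 279 cells but *Lamb3* transcripts in 7. Some hair follicle genes were lower in members too, among them *Lhx2*, with 2 UMIs against 86. Without the minimum, 5 of 16 hair follicle and sebaceous gland genes were higher in members and 5 lower. The lower ones were *Lgr5*, *Lgr6*, *Lhx2*, *Lrig1* and *Sox9*. The gate sets no limit on follicle genes, and whether the basal group holds follicle cells was not tested. Of 8 cell cycle genes measured, 7 were at least 2-fold lower, 6 of which reached 50 CPM in basal cells only, and without the minimum 11 of 12 were lower. Among them were *Top2a* (9.49 against 140 CPM) and *Mki67* (10.4 against 117 CPM). *Cdk1* was at 0 in members, 26.9-fold lower with that 0 set to 3 UMIs.

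Genes of the activated wound epidermis stood on both sides on Day 14. The wound keratins *Krt6a* (27.1 against 232 CPM, 8.56-fold lower) and *Krt16* (230 against 489 CPM) were lower in members. The cornified envelope precursor *Sprr1a* (1534 against 224 CPM), the EGF receptor ligand *Areg* (158 against 54.1 CPM) and the cystatin *Stfa1* (98.9 against 23.5 CPM) were higher. In all, 5 of 11 wound genes that the rule did not use were at least 2-fold higher and 2 lower, of which 3 and 1 reached 50 CPM only in the group where they were high. Without the minimum 5 of 13 were higher and 3 lower. Among 8 cytokines, the skin chemokine *Ccl27a* (259 against 1070 CPM, 4.14-fold lower), the alarmin *Il33* (3.19-fold lower) and *Vegfa* were lower, and *Il1b* was higher at 57.4 against 7.82 CPM. Of these, *Il1b* reached 50 CPM in members only and 2 of the 3 lower ones in basal cells only. Without the minimum 1 of 15 cytokines was higher and 6 were lower, beside 10.4% and 17.0% of all 10755 genes. Only 12 members held the 127 *Il1b* UMIs, 39.4% of them in 1 member. The 4 members with *Cd207*, the Langerhans cell lectin, held 63 of the 127 UMIs. Without the cells in which the macrophage or the Langerhans and dendritic list reached 1% of UMIs, a choice made after seeing the data, the log2 ratio of *Il1b* was 0.56 (-2.25 to 4.02), against 2.88 with them.

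**Figure D2:**
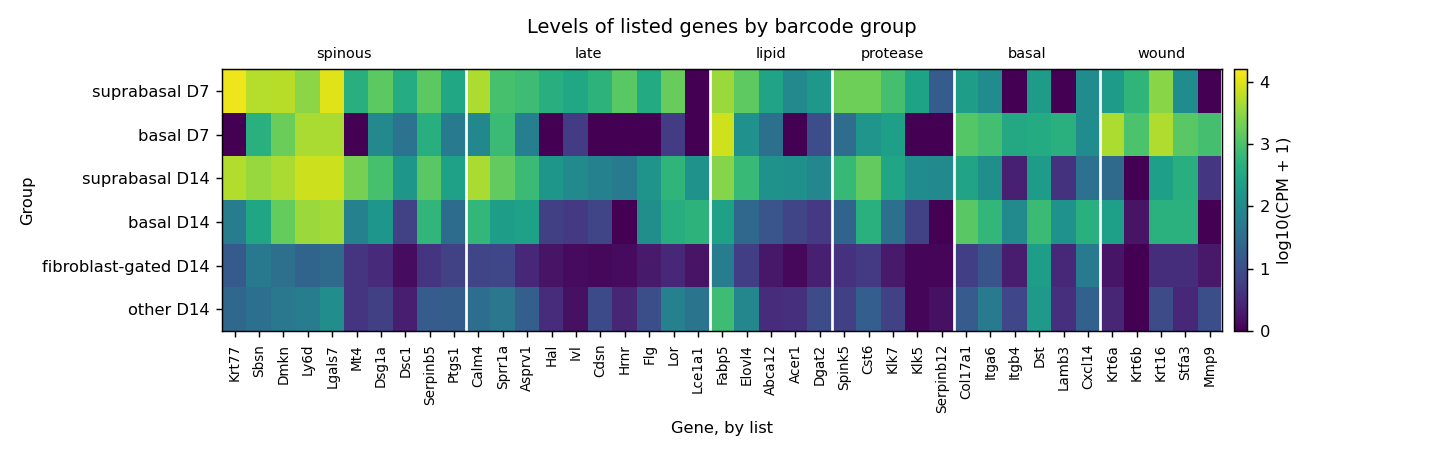
Levels of 41 listed genes (columns, grouped by list) in 6 groups of barcodes (rows, D7 and D14 for Days 7 and 14), as log10 of CPM plus 1, from dark (0) to yellow. The spinous, lipid and protease blocks are bright in both suprabasal rows, the basal block in both basal rows, and the fibroblast-gated and other rows stay dark in most columns.

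Genes did not all shift at the same point of the keratin switch. The keratinocytes of Day 14 were placed in 6 bins by their *Krt1* and *Krt10* share of the 4 balance keratins, with 221, 32, 12, 14, 16 and 232 cells. The first pair of bins is basal and the other 4 are suprabasal. The bins use keratin counts of the same cells, and the middle bins hold few cells. *Krt77* stood at 29.1, 237, 354, 895, 1386 and 5778 CPM from the first bin to the last. *Sbsn* stood at 272, 460, 646, 907, 1071 and 3760 CPM, and both were therefore higher in each bin than in the one before. *Elovl4* was already at 118 CPM in the upper basal bin, against 9.18 CPM in the lower, and reached 739 CPM in the last. *Mt4* stood at 19.1 and 359 CPM in the basal bins and at 1494, 742, 1607 and 2343 CPM in the suprabasal ones.

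Among the basal genes, *Col17a1* and *Itga6* did not drop to 0 at the switch. *Itgb4* and *Itga3*, in contrast, had 3 and 2 UMIs over all members. *Col17a1* stood at 1384 and 1056 CPM in the basal bins, at 1025, 860 and 710 CPM in the next 3, and at 208 CPM in the last. *Itga6* stood at 637, 425, 430, 342, 233 and 97.6 CPM, level across the switch itself. *Hal*, the histidase of the upper epidermis, had 0 UMIs in the bins from 0.1 to 0.5 and from 0.5 to 0.75, and stood at 182 CPM in the last bin. Each gene was also given a position, the mean rank of the 527 cells with any of the 4 keratins, in percent from the most basal to the most suprabasal, weighted by the gene's CPM in each cell. The median position was 26.6 for cell cycle genes and 29.7 for basal genes, against 69.8 for spinous and 71.3 for lipid genes. At the basal end 119 cells tied and at the suprabasal end 162, and the balance is that of the rule, so no order among the lists that stood high in members can be read from it. With the 279 members alone placed by the share of their UMIs from the late list, an alternative order, the median position was 35.8 for basal genes, 51.4 for desmosome genes, 56.3 for spinous genes, 66.1 for lipid genes and 72.3 for proteases and inhibitors. That share was in large part *Calm4* in the typical member, at a median of 3675 CPM per member.

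**Figure D3:**
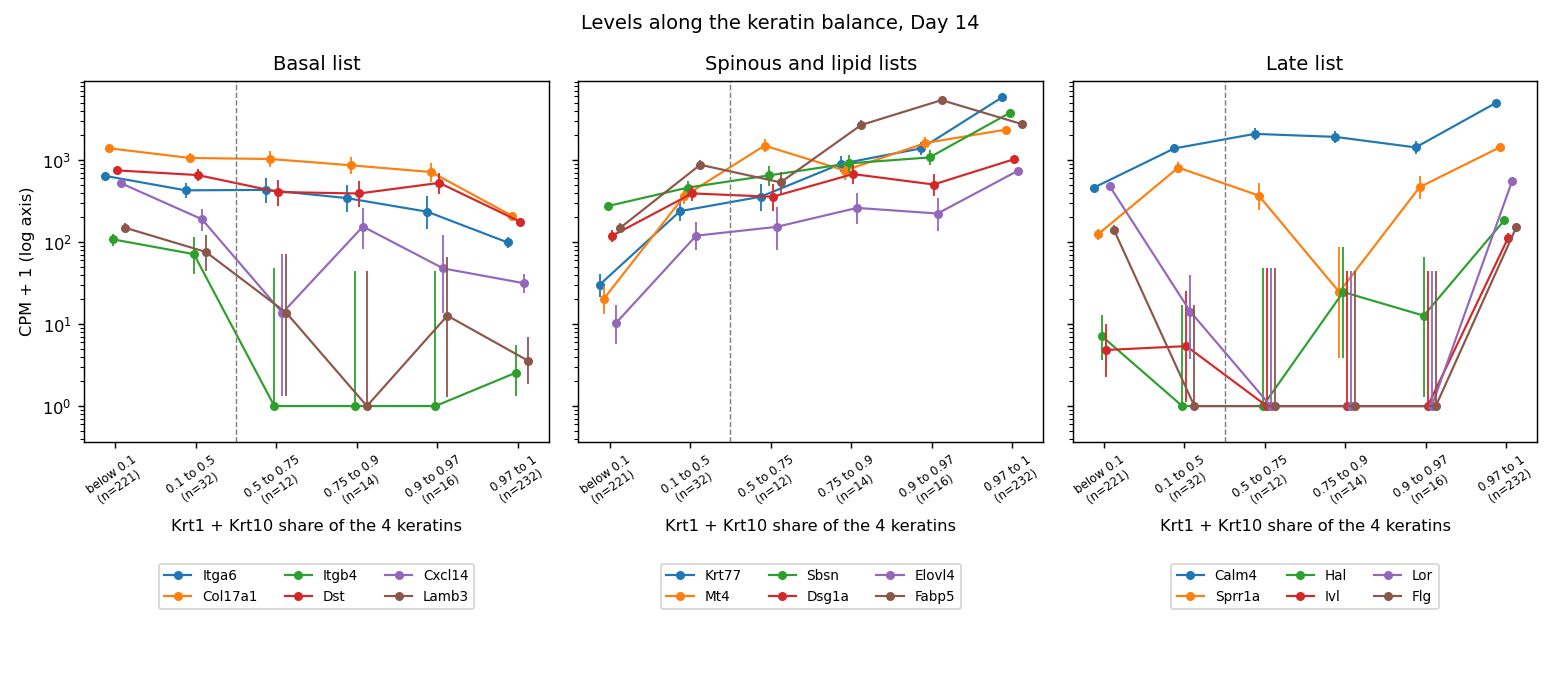
CPM plus 1 (log axis) of basal (left), spinous and lipid (middle) and late genes (right) in the 6 bins of the *Krt1* and *Krt10* share (x axis, number of cells below), Day 14. Points are summed levels with 95% Poisson intervals, a point at 1 means 0 UMIs, and the dashed line separates basal from suprabasal bins. The basal genes end lower in the last bin than in the first, the spinous and lipid genes end higher, and *Lor* and *Flg* appear at both ends with 0 UMIs in the bins between 0.5 and 0.97.

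The abundant spinous genes were present in most members, and *Lor*, *Flg* and *Hrnr* in few. To compare cells of unequal depth, each of the 279 members was thinned to 1000 UMIs. *Krtdap* then had a UMI in 98.9% of members (100% without thinning), *Ly6d* in 94.6% (99.6%), *Dmkn* in 90.7% (99.3%), *Calm4*, from the late list, in 88.5% (97.8%) and *Sbsn* in 84.2% (97.1%). *Krt77* was seen in 69.9% (86.4%), *Mt4* in 60.2% (79.9%) and *Elovl4* in 44.1% (88.2%). Breadth followed neither list throughout, since among the spinous genes *Dsc1* was seen in 8.96% (41.9%), and among the late genes *Sprr1a* in 38.4%, *Asprv1* in 24.4% and *Ppl* in 19.7% (69.5%). Other late genes were seen in fewer, *Hal* in 12.2% (39.1%), *Ivl* in 8.60% (21.5%), *Cdsn* in 4.66% (8.60%), *Lor* in 3.94% (8.24%), *Flg* in 3.58% (6.45%) and *Hrnr* in 2.15% (5.38%). Fibroblast-gated barcodes, with a median depth of 10421 UMIs against the members' 7441, gave the comparison at the same thinning. Their share was 2.60% for *Krtdap*, 4.63% for *Sbsn*, 2.86% for *Dmkn*, 1.01% for *Krt77*, 0.392% for *Elovl4*, 0.209% for *Lor* and 0.0653% for *Flg*. The *Sbsn* share was above that of *Krtdap*, although the members held 7744 *Sbsn* and 39718 *Krtdap* UMIs, and the source of the UMIs in fibroblast-gated barcodes was not tested.

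Some late genes also concentrated in single cells. The top member held 2.79% of the members' UMIs of the spinous gene *Krt77*, and of the late genes it held 2.94% for *Ppl* and 3.03% for *Calm4*. It held 19.7% for *Asprv1*, a protease that cuts filaggrin, 27.7% for *Cdsn*, 40.7% for *Flg*, 44.5% for *Hrnr* and 74.7% for *Lor*. Among the 11 members with a *Lor* UMI after thinning, 11 had *Krtdap*, 10 *Sbsn*, 10 *Dmkn*, 9 *Spink5*, 7 *Ly6d*, 7 *Flg*, 7 *Cdsn* and 6 *Krt77*. *Mt4* was present in 2 of these 11. Among the 268 members without a *Lor* UMI after thinning, 257 had *Ly6d*, 189 *Krt77*, 166 *Mt4* and 68 *Spink5*. *Krtdap* is part of the rule.

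**Figure D4:**
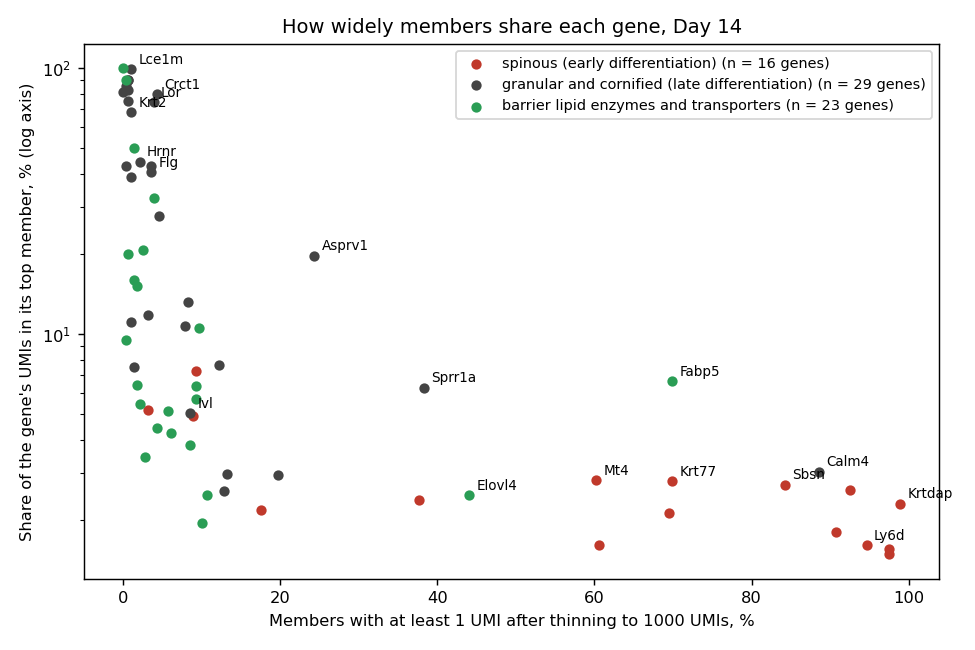
Percentage of the 279 Day 14 members with at least 1 UMI of a gene after thinning to 1000 UMIs (x axis) against the percentage of the gene's UMIs held by its top member (y axis, log), for 16 spinous, 29 late and 23 lipid genes with at least 10 UMIs in members. Most spinous genes run along the lower edge, whereas *Lor*, *Flg* and *Hrnr* sit in the upper left, held by few members and with a large share in 1.

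The members were further divided into 3 sets of 93 by the share of their UMIs from the late list, with medians of 0.260%, 0.602% and 1.23%. In the typical member much of that share was *Calm4*, at a median of 3675 CPM per member, against 158 CPM for *Sprr1a*. The sets therefore order cells in large part by *Calm4*, a gene of nearly all members. Their median depths were 6470, 8341 and 8352 UMIs. Along these sets *Krt77* stood at 1912, 5133 and 7647 CPM and *Sbsn* at 1302, 2820 and 5809 CPM. *Krt1* was level by comparison, at 11873, 12361 and 10318 CPM, and *Mt4* at 2096, 2602 and 1880 CPM. Of the outer-layer proteases and inhibitors, some stood mainly in the highest set. *Klk7* stood at 0, 50.1 and 735 CPM, *Klk5* at 11.3, 56.6 and 229 CPM, *Spink5* at 123, 368 and 1345 CPM and *Cst6* at 184, 382 and 3763 CPM. Others differed less, with *Klk11* at 37.1, 56.6 and 99.2 CPM, *Cstb* at 656, 802 and 1210 CPM, *Serpinb2* at 777, 1364 and 1487 CPM and *Spint1* at 25.8, 25.7 and 30.6 CPM. Genes of the hair follicle and sebaceous gland list went both ways along the sets. *Krt79* stood at 207, 180 and 698 CPM, *Defb6* at 38.8, 29.6 and 348 CPM and *Krt23* at 3.23, 6.43 and 176 CPM, whereas *Mgst1* stood at 100.1, 10.3 and 3.67 CPM, *Cidea* at 43.6, 2.57 and 0 CPM and *Scd1* at 197, 132 and 125 CPM. *Fasn* stood at 61.4, 51.4 and 71.0 CPM and *Tchh* at 29.1, 36.0 and 17.1 CPM. Several levels of this list came from few members. In the lowest set *Cidea* lay in 2 members, *Mgst1* in 10 and *Scd1* in 33. In the highest set *Krt79* and *Defb6* lay in 13 members each and *Krt23* in 27. Of the 17 members with at least 5 *Krt79* UMIs, 4, 2 and 11 lay in the sets. Without them, a choice made after the values were seen, *Klk7* stood at 0, 32.6 and 480 CPM, *Klk5* at 0, 54.8 and 208 CPM, *Spink5* at 97.1, 348 and 1300 CPM and *Cst6* at 173, 315 and 911 CPM. The lipoxygenase *Alox12b* stood at 1.61, 3.86 and 60.0 CPM, *Cldn4* at 93.7, 143 and 466 CPM and the repressor *Prdm1* at 8.07, 12.9 and 83.2 CPM. The 264 *Ereg* UMIs lay mostly in the same set, at 1.61, 12.9 and 310 CPM.

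The lowest set kept more of the basal genes. *Col17a1* stood at 581, 257 and 71.0 CPM along the sets, *Krt5* at 799, 47.6 and 25.7 CPM and *Krt14* at 819, 127 and 53.9 CPM. The chemokines *Cxcl2* and *Ccl27a*, which are not on the basal list, also fell along the sets. *Cxcl2* stood at 745, 190 and 77.1 CPM, from 27, 25 and 22 members, and *Ccl27a* at 401, 314 and 99.2 CPM. *Trp63* was level in the lower sets, at 239 and 242 CPM, and stood at 118 CPM in the highest. None of these genes is on the late list that ordered the sets, but the sets come from the same counts and differ in depth.

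The granular and cornified list was mixed. Of 24 late genes measured on Day 14, 13 were at least 2-fold higher in members than in basal cells and 7 lower, with a median log2 ratio of 1.37. Of these, 8 of the 13 reached 50 CPM in members only and 4 of the 7 in basal cells only. Without the minimum, 18 of 32 were higher and 9 lower. *Calm4*, a calcium-binding protein of differentiating keratinocytes, stood at 4614 against 595 CPM, 7.76-fold. *Sprr1a* was 6.85-fold higher, *Asprv1* 2.87-fold and the cornified envelope precursor involucrin (*Ivl*, 98.9 against 3.91 CPM) 25.3-fold. *Hal* was 31.7-fold higher and corneodesmosin (*Cdsn*) 10.7-fold. The envelope scaffold genes *Ppl* and *Evpl*, whose proteins bind keratin at the desmosome, were 2.66-fold and 4.02-fold higher, and sciellin (*Scel*) 3.32-fold. *Hrnr*, a filaggrin-like protein, stood at 53.8 CPM and was at 0 in basal cells, 27.5-fold higher with that 0 set to 3 UMIs.

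For the terminal genes the ratio depended on single barcodes. Loricrin (*Lor*), the main protein of the cornified envelope, stood at 551 CPM in members and 405 CPM in basal cells, a log2 ratio of 0.44, and of 4.41 without the top barcode of each group. Filaggrin (*Flg*) stood at 145 and 119 CPM, with log2 ratios of 0.29 and 5.45. For *Casp14*, the caspase that processes filaggrin, the ratios were 0.65 and 4.01. For *Crct1* they were 0.75 and 5.25. For *Lce1a1*, a late cornified envelope gene, the ratio turned from -1.82 to 4.25. The 7 late genes that were lower in members were all of the *Lce1* group, and 1 basal barcode carried most of their basal UMIs. *Lce1m* was 7.96-fold higher in members, with 99.0% of the members' UMIs in 1 cell.

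Most *Lor* and *Lce1* transcripts of Day 14 lay outside the members. The 279 members held 80.5% of the *Krt1*, 75.1% of the *Krt10*, 78.9% of the *Krt77* and 73.7% of the *Spink5* UMIs of the passing barcodes. They held 19.6% of the 6232 *Lor* UMIs and 13.8% of the 23622 UMIs of 14 *Lce1* genes. Instead 10 barcodes with at least 100 *Lor* UMIs, a limit chosen after the values were seen, held 92.1% of the *Lor* and 96.9% of the *Lce1* UMIs. These 10 held 0.595% of the *Krt10* UMIs, and 9 of them had at most 3 UMIs of *Krt1* and *Krt10*. By the gate 2 were members, 1 was basal, 2 failed the limit on *Dcn* and *Col1a2*, 1 had too few adhesion gene UMIs and 4 fell below the keratin limit. Their mitochondrial shares ran from 0.456% to 4.81%. The richer member had 910 *Lor*, 3117 *Lce1* and 2 *Krt1* and *Krt10* UMIs among 13441. The other had 109 *Lor*, 10 *Lce1*, 285 *Krt1* and *Krt10* and 319 *Krt77* UMIs among 23903.

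Further groups of members departed from the common profile, chosen after the values were seen. In 17 members *Krt79*, a keratin of hair follicle ducts and sebaceous glands, had at least 5 UMIs. Their median share of *Krt1* and *Krt10* was 0.518%, against 2.28% in the other 262. In the same 17 the defensin *Defb6* stood at 2212 CPM against 15.4 CPM, *Cst6* at 18299 against 486 CPM, the sebaceous duct factor *Gata6* at 96.2 against 0.962 CPM and *Klk7* at 1930 against 182 CPM. *Krt17*, which the rule used, stood at 9475 against 95.7 CPM. The *Cst6* level of the 17 rested largely on 1 member with 997 UMIs and another with 769. A *Lor* UMI was present in 23 members. In these *Crct1* stood at 4844 against 23.6 CPM, *Flg2* at 1211 against 4.01 CPM and *Hrnr* at 512 against 3.51 CPM. Single members carried much of these levels, and most of that of *Crct1*. After thinning, 1 member held 67 of the 117 *Crct1* UMIs of all members, and 1 held 8 of the 28 *Flg2* UMIs. Without thinning, 1 member held 53 of the 119 *Hrnr* UMIs. Of 5 members with none of the 4 balance keratins, 2 had 42 and 35 *Krt79* UMIs and 3 had 75, 36 and 29 *Lor* UMIs, so they entered through *Krtdap* or *Krt17*.

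The genes that varied most among members included genes of these small groups. After thinning to 1000 UMIs, the 10 highest Fano factors (variance over mean) were those of *Lce1m* (180), *Gm42418* (48.2), *Lor* (41.9), *Crct1* (41.8), *Cst6* (41.7), *Flg* (21.4), *Lce1a1* (20.8), *Lce1a2* (20.1), *Krt17* (12.5) and *Cd74* (10.0). The median over 3524 genes was 1.03. *Gm42418*, which overlaps ribosomal RNA, took 8.40% of the members' UMIs on Day 14 and 16.8% on Day 7. Over the 279 members, which share 1 library, Spearman's rho was 0.66 between *Lor* and *Flg*, 0.57 between *Krt79* and *Defb6*, 0.50 between *Krt77* and *Sbsn* and 0.42 between *Krt77* and *Elovl4*. The share of ribosomal protein genes, whose median was 17.7% of UMIs, had a rho of -0.46 with *Krt77* and 0.44 with *Ly6d*. These are descriptions over cells of unequal depth.

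The 9 members of Day 7 were set against 26 basal cells, with wider intervals. Of 3475 genes measured, 17.9% were at least 2-fold higher in members and 23.7% lower, with a median log2 ratio of -0.25. Of 12 spinous genes that the rule did not use, 11 were higher and none lower, with a median of 3.01. Of 17 late genes, 14 were higher and none lower, and of 14 basal genes, 11 were lower and none higher. Lipid genes were higher in 9 of 10 cases, with the summed level of *Fabp5* lower. The 50 CPM minimum was reached in members only by 4 of the 11 spinous, 10 of the 14 late and 6 of the 9 lipid genes, and in basal cells only by 7 of the 11 basal genes. Of 18 wound genes, 4 were higher and 8 lower, of which 2 and 5 reached 50 CPM only in the group where they were high. *Krt77* had between 8 and 303 UMIs in each of the 9 cells. The wound keratin *Krt6a* stood at 205 CPM in members against 4768 CPM in basal cells, and *Stfa1* and *Stfa3* at 94.5 against 1263 CPM and at 110 against 1350 CPM. The protease gene *Mmp9* had no UMI in the members and stood at 904 CPM in basal cells.

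Single members of Day 7 set the level of the terminal genes. A single member held 104 of the 105 *Lor*, 83 of the 86 *Hrnr*, all 37 *Flg2*, all 33 *Cdsn*, 112 of the 121 *Cst6* and 95 of the 117 *Spink5* UMIs. It also held 303 of the 787 *Krt77* UMIs. Without it *Lor* stood at 18.7 CPM rather than 1655, *Hrnr* at 56.1 rather than 1355 and *Krt77* at 9044 rather than 12401. Another member held all 36 *Krt6b* and 146 of the 178 *Krt16* UMIs, and without it *Krt16* stood at 555 CPM rather than 2805.

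The members of the 2 days were also set side by side. Of 3145 genes measured, 12.6% were at least 2-fold higher on Day 14 than on Day 7 and 18.3% lower, so that 40.7% of the differing genes were higher. With the 50 most abundant genes left out of the totals, log2 ratios moved by -0.13, 4992 genes were measured and that share was 27.2%. Of 13 spinous genes that the rule did not use, 3 were higher on Day 14 (*Ly6d*, *Mt4* and *Skint10*) and 2 lower (*Dsc1* and *Krt77*), with a median log2 ratio of -0.36. The log2 ratios were 2.31 for *Mt4*, 1.32 for *Ly6d* and -1.27 for *Krt77*. Without the barcodes of at least 100 *Lor* UMIs, on Day 7 the member described above, that of *Krt77* was -0.83 and no longer 2-fold. *Skint10* had 1 UMI on Day 7. None of 17 transcription factors was 2-fold apart. Of 13 wound genes 1 was higher and 6 were lower, of 15 lipid genes none was higher and 8 were lower, and of 14 proteases and inhibitors 1 was higher and 7 were lower. Of 21 late genes 3 were higher and 10 lower. Many of these genes reached 50 CPM only on the day where they were higher. Of the genes at 50 CPM on both days, 1 of 10 wound genes was higher and 3 were lower, none of 12 lipid genes was higher and 5 were lower, none of 11 proteases and inhibitors was higher and 5 were lower, and 1 of 16 late genes was higher and 9 were lower. Over the whole table, 122 of 1951 such genes were higher and 167 lower. The Day 7 member rich in *Lor* held 47 of the 58 *Klk7*, 95 of the 117 *Spink5* and all 33 *Cdsn* UMIs of that day. Without it *Klk7* stood at 206, *Spink5* at 411 and *Cdsn* at 0 CPM on Day 7, below their Day 14 levels. Intervals lay past 2-fold for 3 of the 8 lower lipid genes and 2 of the 7 lower proteases and inhibitors. They did so for 6 of the 10 lower late genes and 5 of the 6 lower wound genes.

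The largest ratios between the days rested on few Day 7 UMIs or on single cells. *Krt6b*, with 36 UMIs in 1 member on Day 7, had none on Day 14, at least 419-fold lower. *Krt16* was 12.2-fold lower on Day 14, at 230 against 2805 CPM, and *Hrnr* stood at 53.8 against 1355 CPM. Without the barcodes of at least 100 *Lor* UMIs the log2 ratio of *Hrnr* was -0.95 and that of the lipid gene *Elovl4* -0.69, both under 2-fold. On the higher side stood *H2-Aa*, *H2-Eb1*, *H2-Ab1* and *Cd74*, genes of antigen presentation, with 2, 2, 2 and 4 UMIs on Day 7. *Cd74* reached 781 CPM on Day 14 against 63.0 CPM, a log2 ratio of 3.63. Its UMIs came from 77 of 279 members. In the same library the Langerhans and dendritic list reached 1% of UMIs in 12 members and *Cd207* had 69 UMIs in 4. Without the cells in which that list or the macrophage list reached 1%, a choice made after seeing the data, the log2 ratio of *Cd74* was 0.71 and that of *H2-Aa* 1.57.

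Against the fibroblast-gated barcodes of Day 14, the members' lists stood apart by larger ratios. Of 3367 genes measured, 24.9% were at least 2-fold higher in members and 25.4% lower, with a median log2 ratio of 0.26. Every late gene, and every spinous gene that the rule did not use, reached 50 CPM in members only if it reached it at all. The counts here were therefore taken without that minimum, where 20.1% of 16328 genes were higher and 20.7% lower. Of 13 spinous genes that the rule did not use, 13 were higher, and of 30 late genes 29, with medians of 8.41 and 7.78. Higher were also 10 of 10 desmosome genes that the rule did not use (7.12), 19 of 23 transcription factors (3.91), 15 of 17 proteases and inhibitors (7.46) and 18 of 23 lipid genes (6.18). The lipid gene *Ugcg* had a log2 ratio of -0.67. Of 15 basal genes 5 were higher and 2 lower. *Krt77* stood at 14.4 CPM and *Sbsn* at 48.5 CPM in fibroblast-gated barcodes, the levels from which the ratios were taken. Against the other barcodes, 17.3% of 3572 genes were at least 2-fold higher in members and 28.0% lower. Without the minimum the shares were 12.5% and 30.3% of 15251 genes, and 13 of 13 spinous and 27 of 33 late genes were higher, with medians of 6.88 and 4.28.

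A globin transcript was seen in more of the suprabasal cells of Day 14 than of the other groups, found after the values were seen. *Hba-a1*, the alpha globin of red cells, had a UMI in 42 of 279 members (15.1%, 11.1 to 19.8) and in 3.94% after thinning to 1000 UMIs. None of 253 basal cells had one, and 3 UMIs over them would be a share of 1.19%. The share was 0.653% of fibroblast-gated barcodes and 0.449% of other barcodes. By level, *Hba-a1* stood at 38.4 CPM in members, 3.26 CPM in fibroblast-gated and 159 CPM in other barcodes, where 1 barcode held 1120 of the 3640 UMIs. The 85 UMIs were spread thinly, with 1 in each of 25 members and at most 8 in any. *Hba-a2* had 8 UMIs and the beta globins 1 in members, or 0.0108 beta globin UMIs per alpha globin UMI. That ratio was 0.419 in fibroblast-gated and 0.845 in other barcodes. Along the 3 late-share sets *Hba-a1* stood at 11.3, 27.0 and 69.8 CPM. None of the 9 members of Day 7 had a UMI, for which the limit is 33.3%.

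**Figure D5:**
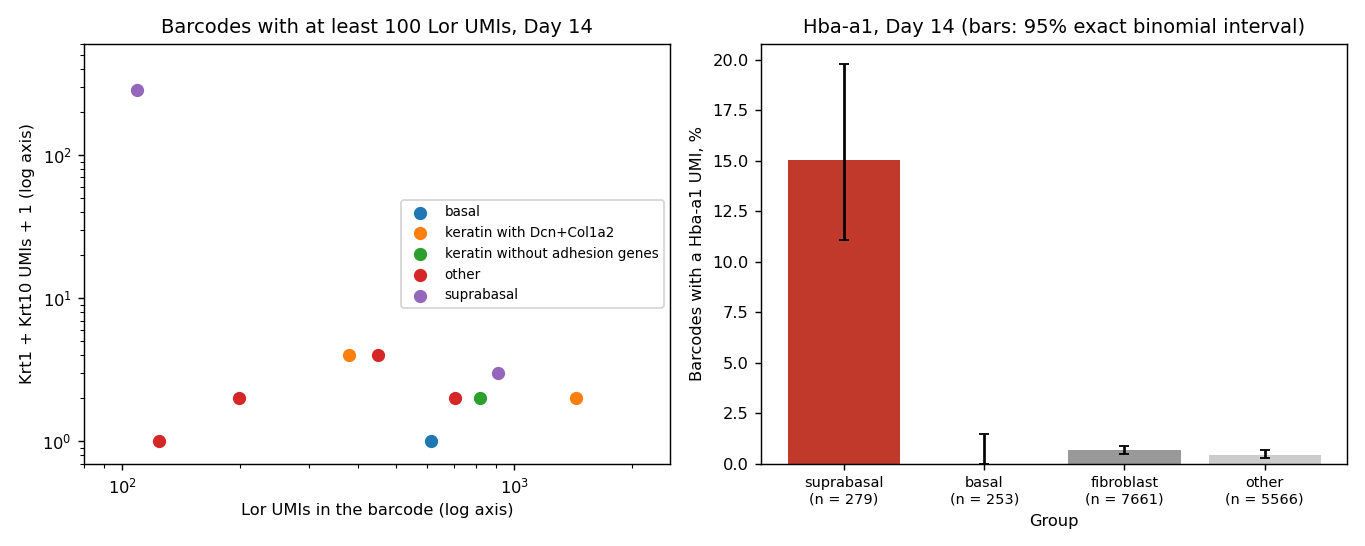
Left, the 10 Day 14 barcodes with at least 100 *Lor* UMIs (x axis, log) against their *Krt1* and *Krt10* UMIs plus 1 (y axis, log), coloured by class, where 9 of 10 lie at 3 UMIs or fewer. Right, percentage of Day 14 barcodes with a *Hba-a1* UMI in 4 groups with 95% exact binomial intervals, 15.1% in the suprabasal group and below 1% in the others.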

How the data were processed

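Wound cells of 3 days were profiled with Chromium 3′ chemistry, 1 pooled library per day. The deposited files hold raw UMI counts per gene and barcode, which the authors made with Cell Ranger 6.0.0 on mm10, per the submitters' processing notes. Barcodes were gated as described, with Python 3.11.15, NumPy 2.4.6, SciPy 1.17.1, pandas 2.3.3 and, for doublet scores, scikit-learn 1.9.0. Called doublets were kept and removed in an alternative. Counts were summed per class and library and scaled to CPM, with exact Poisson, conditional binomial and Clopper-Pearson intervals (95%). On Poisson counts simulated with known ratios, 94.5% of the intervals of altered genes, drawn from 6573, covered the true ratio in the Day 14 comparison with basal cells. The intervals assume such counts, so this check does not bear on spread among cells. A group at 0 was set to 3 UMIs for a bound. Genes of the 13 lists were named, with those of the largest ratios and Fano factors. The members, 13 lists and 247 listed genes were chosen with earlier results of these data known. *Krt85* and *Il36g* matched no symbol. Replicates were absent, so no test was run. Alternatives varied the gate, doublets, scaling, the CPM minimum and thinning.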

Additional observations from a re-analysis of the deposited data

Results flagged for a closer look

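The ratio of *Fabp5* between suprabasal and basal cells had opposite signs on the 2 days, with a log2 ratio of -1.06 on Day 7 and 3.42 on Day 14. The median suprabasal cell had 2111 CPM on Day 7 and 1792 CPM on Day 14, and the median basal cell 326 CPM and 0. *Stfa1* also had opposite signs, with -3.74 on Day 7 and 2.08 on Day 14, from 6 UMIs in 4 of 9 members and 219 UMIs in 75 of 279 members. Neither difference between the days was tested, since each day was 1 library.

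Outside the keratinocyte gate, the other barcodes of Day 14 held 5467 *Lce1* and 1587 *Lor* UMIs. The share of Day 14 members with a *Hba-a1* UMI, a gene outside the comparisons, was 15.1%.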

How the results depend on the processing

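Of the values under alternatives that answer a comparison, 115 stayed within 1.5 times the value reported (for a count of genes) or within its interval (for a share or a number of members), and 10 moved. The suprabasal share of Day 14 keratinocytes was 47.9% with keratins at 0.5% of UMIs or more and 65.3% at 2% or more, and 219 members remained at 5% mitochondrial UMIs or less. On Day 7 the alternatives gave between 5 and 9 members. Without a CPM minimum, 1119 genes were higher and 1826 lower in members than in basal cells on Day 14, 625 higher and 1467 lower on Day 14 than on Day 7, and 3275 higher and 3386 lower than in fibroblast-gated barcodes, as more genes were measured. With the 50 most abundant genes left out of the totals, 1305 genes were lower on Day 14 than on Day 7, with 4992 rather than 3145 genes past the CPM minimum. Of 652 values of named genes, 15 turned sign, 5 of them for ratios of at least 2-fold. The sign turned for *Fabp5* on Day 7 with *Dcn* and *Col1a2* under 0.5% (0.066). Without barcodes of at least 100 *Lor* UMIs, an alternative added after seeing the data, it turned for *Lce1a1* against basal cells on Day 14 (4.23) and for *Lor* (2.30), *Flg2* (0.10) and *Spink5* (0.56) between the days. A further 10 ratios, each under 2-fold as reported, turned sign. Of these, 8 were for the ratio to basal cells on Day 14, for *Flg* at -0.63 with keratins at 2% or more, -0.52 at 5% mitochondrial UMIs or less and -0.08 with a 2-fold keratin balance, for *Lor* (-0.49 and -0.01) and *Casp14* (-0.24 and -0.45) under the first and last of these, and for *Crct1* (-0.14) under the first. The other 2 were *Ly6d* (0.19) and *Krt16* (0.20) on Day 7 with *Dcn* and *Col1a2* under 0.5%. The 2-fold keratin balance also moved the 5 members with none of the 4 balance keratins to the basal group. Of these 5, 3 held 75, 36 and 29 *Lor* UMIs, so the values under that setting are not those of a stricter balance alone. In 16 values a ratio of at least 2-fold came under 2-fold with its sign kept. The cause was not tested. Of the values of named genes, 533 stayed within their range, 114 moved, the 10 among them, and 5 of at least 2-fold turned. No paired analysis was possible because each day was 1 library. With 9 members on Day 7, genes under about 50 CPM there rest on 3 UMIs or fewer, and between-day ratios are bounded by that depth.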
